A study of Sus scrofa with 8 samples.

Results

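The miR-29 and miR-30 families were described in the livers of young and old Yanan sows. Members were the rows of the miRNA table named miR-29a, b or c or miR-30a, b, c, d or e, from either arm of the hairpin. The rule found 20 of the 888 names in the table. Of these, 2 were near-identical repeats of another row, with values that differed by at most 0.412% in any library, and the repeats were counted once. This left 18 members, 7 of miR-29 and 11 of miR-30, among 883 distinct names. The names miR-29b-1-5p, miR-29b-2-5p and miR-30c-1-3p carry a locus number, and they were included because the letter is the same. All 18 members passed the filter on low values, and 40 to 249600 reads stood behind each value.

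The study compared 2 young sows aged 180 days with 2 old sows aged 8 years, which were female pigs with no close blood relationship. Frozen liver tissue of each sow gave 1 small RNA library and 1 RNA-seq library depleted of ribosomal RNA. No treatment is named, age was the variable compared, and each age group rests on 2 animals. By the paper, the young sows had borne no litter, and the old sows had borne litters for many years before they were culled. Age and breeding history therefore cannot be told apart here. The labels name no batch. The groups are called young and old livers, and values are given in the order young replicate 1, young replicate 2, old replicate 1 and old replicate 2.

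A miRNA is cut from a hairpin precursor whose strands give a 5p and a 3p mature form. The loaded strand binds mRNAs through its seed, a short stretch near its 5′ end, and lowers their stability and translation. Members of a family share the seed of their main strand and so share many targets. In miR-29 the main strand is 3p, and its best known targets are collagens and other matrix proteins and the enzymes that write and erase DNA methylation. In liver the family is known for its low level in activated stellate cells, the cells that lay down scar matrix. In miR-30 the main strand is 5p, and its known targets include SNAI1 and other regulators of the epithelial state, autophagy proteins and, in liver, the lipoprotein assembly protein MTTP. The opposite strands, here called other arms, have other seeds.

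The miRNA values of the 4 libraries were whole multiples of what 1 read is worth in that library. That worth was 1.33, 0.962, 1.14 and 1.19 units, so the deposited scale raised young replicate 1 over young replicate 2. With repeats counted once, the summed value of young replicate 1 was 1.66 times that of young replicate 2. The libraries held 10438212, 8715516, 9853669 and 9125959 reads on listed names. Levels were therefore also given as RPM, the reads of a name after each library is scaled to 1000000 reads, and shares and ratios within a library do not depend on the scale. miR-122, the defining hepatocyte miRNA, took 31.1% to 38.4% of the reads of each library.

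miR-29 was carried by miR-29a-3p, listed as ssc-miR-29a and again as miR-29a-3p, the ninth most abundant name of the table by mean reads. Its deposited values were 332970 and 217483 in young livers against 243713 and 245787 in old livers. Both old values lay between the young ones, and the log2 fold change of old against young was -0.14 with a standard error (SE) of 0.60 (limma, adjusted p = 0.951). In RPM, miR-29a-3p was at 23912 and 25934 in young livers against 21752 and 22645 in old livers, so on this scale both old livers lay below both young livers. miR-29c-3p was far less abundant, with deposited values of 12670, 8539, 19080 and 10705. Old replicate 1 was highest, old replicate 2 lay between the young livers, and the log2 fold change was 0.46 (SE 0.63, adjusted p = 0.824), or 0.04 without old replicate 1 and 0.88 without old replicate 2. miR-29b-3p had values of 7208, 4913, 6769 and 4140, and the age groups overlapped, with a log2 fold change of -0.17.

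Among the other arms of miR-29, the a and c forms had opposite signs. miR-29a-5p had deposited values of 906 and 589 in young livers against 509 and 435 in old livers, all old values below all young values. Its log2 fold change was -0.63 (SE 0.60, adjusted p = 0.726). miR-29c-5p had values of 220 and 169 in young livers against 363 and 282 in old livers, again with no overlap but with the old livers higher. Its log2 fold change was 0.72 (SE 0.59, adjusted p = 0.676), the smallest adjusted p of the 18 members. miR-29b-1-5p was at 103 and 88.5 against 45.5 and 85.6, so both old values were lower, the second by little. miR-29b-2-5p, from the second miR-29b hairpin, was at 192, 125, 114 and 155 and overlapped between ages.

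miR-30 was carried by miR-30a-5p, miR-30d-5p and miR-30c-5p. The deposited values of miR-30a-5p were 139527 and 89533 in young livers against 90509 and 50149 in old livers. Old replicate 1 was just above young replicate 2 on this scale, and the log2 fold change was -0.73 (SE 0.64, adjusted p = 0.702). In RPM, miR-30a-5p was at 10020 and 10677 in young livers against 8078 and 4620 in old livers, with no overlap. miR-30e-5p, listed as ssc-miR-30e-5p and miR-30e-5p, had the same order of livers, with deposited values of 18032, 10724, 11289 and 7275 and a log2 fold change of -0.62 (SE 0.63, adjusted p = 0.740). In RPM it was at 1295 and 1279 in young livers against 1008 and 670 in old livers. In RPM, old replicate 2 was the lowest liver for both members and old replicate 1 lay between it and the young livers. On the deposited scale, leaving out 1 liver gave log2 fold changes from -1.16 (without old replicate 1) to -0.30 (without old replicate 2) for miR-30a-5p and from -0.99 (without young replicate 2) to -0.24 (without young replicate 1) for miR-30e-5p.

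The d, c and b forms of miR-30 had smaller fitted differences between the age groups. miR-30d-5p, listed in the table without an arm, was at 6845, 6804, 7264 and 6708 RPM, so the 4 livers were close to each other. Its log2 fold change was 0.06 on the deposited scale and -0.14 with TMM scaling, a scaling that centres the bulk of the names on no difference. miR-30c-5p was at 2981 and 2554 RPM in young livers against 3470 and 3709 in old livers. The old livers were higher on this scale, while its deposited values of 41504, 21416, 38884 and 40256 overlapped. miR-30b-5p was at 977, 692, 1098 and 529 RPM, and replicate 2 was the lower library in each age group.

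**Figure D1:**
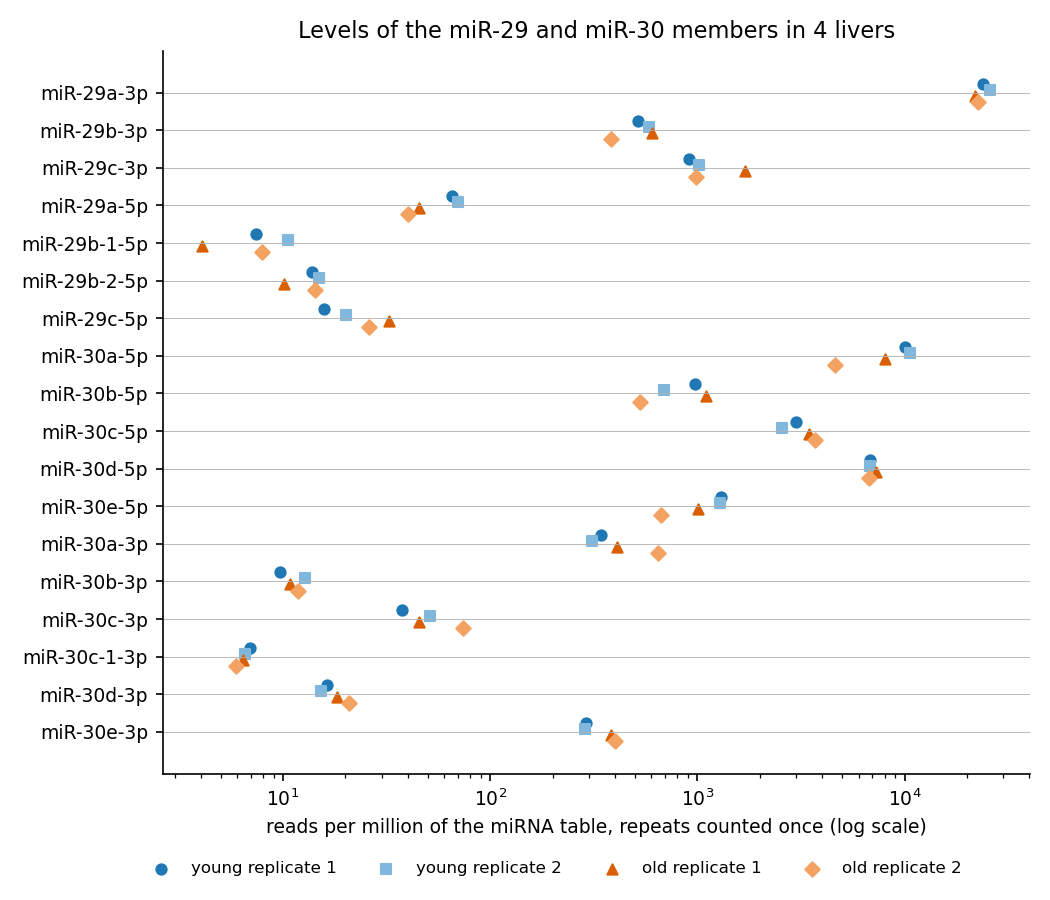
Level of each of the 18 members in the 4 livers, in RPM with repeats counted once, on a log axis, 1 point per liver. miR-29a-3p lies between 21752 and 25934 RPM and miR-30a-5p of old replicate 2 lies at 4620, apart from the 3 other livers.

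For miR-30a and miR-30e, the 3p arm had the opposite sign to the 5p arm. miR-30a-3p had deposited values of 4772 and 2612 in young livers against 4594 and 6971 in old livers, and in RPM it was at 343 and 312 against 410 and 642, with no overlap. Its log2 fold change was 0.68 (SE 0.64, adjusted p = 0.724), against -0.73 for miR-30a-5p of the same hairpin. It was 1.11 without young replicate 1 and 0.25 without young replicate 2. miR-30e-3p was at 291 and 286 RPM in young livers against 384 and 400 in old livers, so the old livers were higher here and in the deposited values of 4051, 2400, 4298 and 4336. The remaining 3p arms were rare. miR-30c-3p, miR-30d-3p, miR-30b-3p and miR-30c-1-3p had log2 fold changes of 0.43, 0.33, 0.05 and -0.10, none with an adjusted p under 0.05.

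No member was called between the age groups. By limma over 867 tested names, adjusted p ranged from 0.676 to 0.981 over the 18 members, and 0.0% of all names were called. At an unadjusted p under 0.05 limma placed 0 members, beside 8.3% of all names as higher and 3.58% as lower. edgeR's exact test on whole reads, the test of edgeR's classic analysis, called 0 members, with adjusted p from 0.381 to 1.0, and called 2.31% of all names as higher and 1.38% as lower. DESeq2 called 0 members as well, with adjusted p from 0.236 to 0.936, against 3.46% of all names called higher and 1.5% lower. With 2 livers per group an exact two-sided permutation test cannot give a p under 0.333, so values without a fitted model are given with no test.

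On the deposited scale, the old and young livers did not overlap for 4 members. Of these, 2 were higher in the old livers (miR-29c-5p and miR-30e-3p), against 28.3% of all tested names, and 2 were lower (miR-29a-5p and miR-29b-1-5p), against 16.1%. In RPM, 5 members were higher without overlap, against 28.6% of all names, and 5 were lower, against 21.0%. The higher ones were miR-29c-5p, miR-30c-5p, miR-30a-3p, miR-30d-3p and miR-30e-3p, and the lower ones were miR-29a-3p, miR-29a-5p, miR-30a-5p, miR-30e-5p and miR-30c-1-3p. The median log2 fold change over the members was -0.01, beside 0.18 over all 867 names, and the median size regardless of sign was 0.42 beside 0.63. With TMM scaling, which moved the median of all names to -0.01, the members' median was -0.22, and 11 of the 18 members lay below 0 in place of 9. The let-7 and miR-98 names, another abundant family, had a median of 0.73 over 20 names. On the deposited scale 14 of them were higher in the old livers without overlap, beside 28.3% of all names, and 1 was lower, beside 16.1%. In RPM, 14 were higher and 3 lower, beside 28.6% and 21.0%. The difference between the families was not tested.

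**Figure D2:**
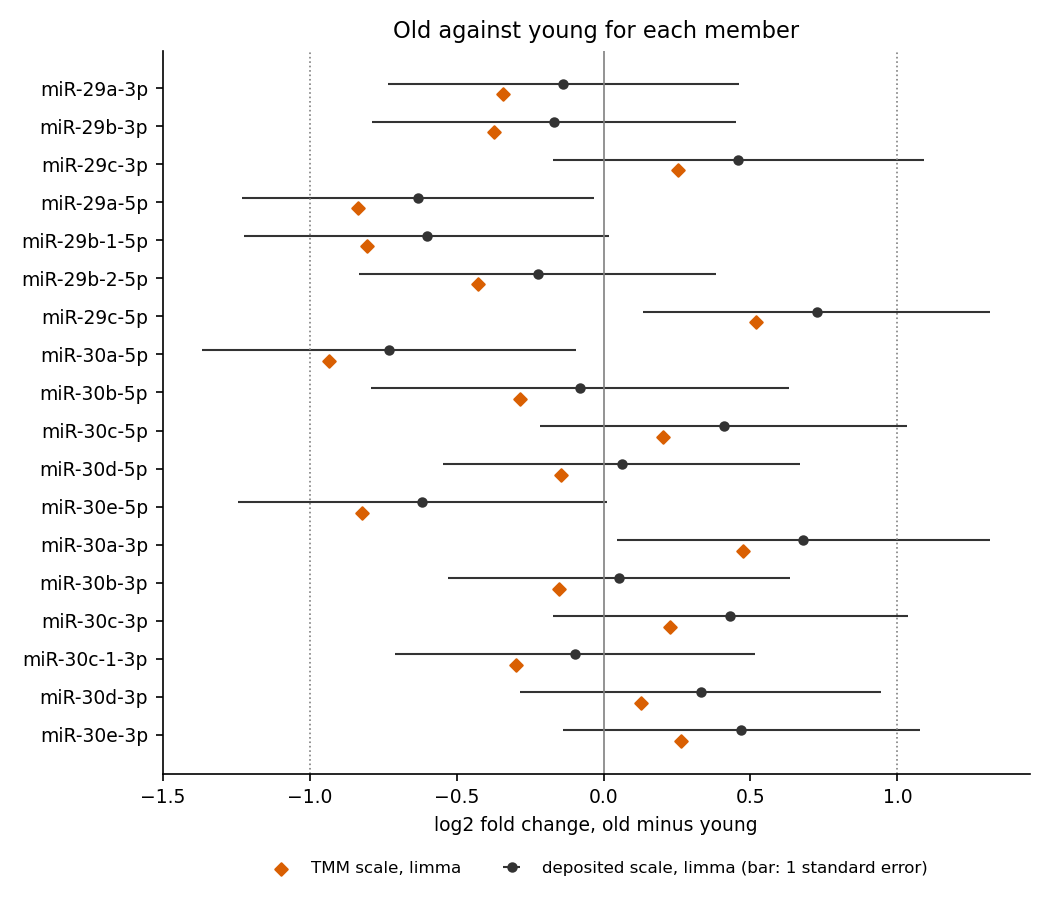
Log2 fold change of old against young livers for each of the 18 members, with black points and bars of 1 standard error for limma on the deposited scale and orange diamonds for TMM scaling. No point passes the dotted lines at a log2 fold change of 1 in either direction, and the bars of 0.58 to 0.71 are as large as most differences.

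Summed over its 3p arms, miR-29 took 2.53% and 2.75% of the miRNA reads in young livers against 2.41% and 2.40% in old livers. Summed over its 5p arms, miR-30 took 2.21% and 2.20% in young livers against 2.09% and 1.62% in old livers. As a share of these reads, both old livers were thus below both young livers for each family. miR-122 alone took 31.1% to 38.4% of the same reads, most in old replicate 2. The widest 95% Wilson interval of the family shares was ± 0.0109 percentage points, which covers counting error only, since reads amplified by PCR are not independent molecules. On the deposited scale the totals overlapped between the ages. They were 352848, 230935, 269562 and 260633 for miR-29 and 307976, 184535, 234368 and 176224 for miR-30. The log2 difference on that scale was -0.11 for miR-29 and -0.23 for miR-30, less than the SD of 0.31 and 0.42 within the age groups. The 3p arms of miR-30 took 0.0704% and 0.0684% of the reads in young livers against 0.0874% and 0.115% in old livers, a log2 difference of 0.56 on the deposited scale (SD 0.43), which was 0.95 without young replicate 1 and 0.18 without young replicate 2.

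Within miR-30, the old livers held a smaller share of miR-30a-5p and larger shares of miR-30d-5p and miR-30c-5p. The shares of a family make up a fixed whole, so a smaller share of 1 member raises the others. These shares and ratios are thus not separate observations, and miR-30d-5p itself was at 6845, 6804, 7264 and 6708 RPM. miR-30a-5p was 45.3% and 48.5% of the family's 5p reads in young livers against 38.6% and 28.5% in old livers. miR-30d-5p was 30.9% in each young liver and 34.7% and 41.3% in the old livers, so that it was the leading member in old replicate 2. miR-30c-5p was 13.5% and 11.6% in young livers against 16.6% and 22.8% in old livers. miR-30e-5p, at 5.85% and 5.81% against 4.82% and 4.13%, was lower in both old livers, and miR-30b-5p was between 3.15% and 5.25% and overlapped between the ages. The widest interval of these shares was ± 0.251 percentage points. The ratio of miR-30a-5p to miR-30c-5p, which no scaling changes, was 3.36 and 4.18 in young livers against 2.33 and 1.25 in old livers, and that of miR-30a-5p to miR-30d-5p was 1.46 and 1.57 against 1.11 and 0.689. In the shares of the a, c, d and e forms and in both ratios, old replicate 2 was farther from the young livers than old replicate 1.

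Within the miR-29 3p arms, miR-29a-3p led in each liver. miR-29a-3p was 94.4% and 94.2% of these reads in young livers against 90.4% and 94.3% in old livers, which overlapped. miR-29c-3p was 3.59% and 3.70% in young livers against 7.08% and 4.11% in old livers, so the old livers were higher and here old replicate 1 was the farther one. Among the 5p arms, miR-29a-5p was 63.8% and 60.6% in young livers against 49.4% and 45.5% in old livers, while miR-29c-5p was 15.5% and 17.4% against 35.2% and 29.4%. The ratio of the c to the a form was thus higher in both old livers for each arm, at 0.0381 and 0.0393 against 0.0783 and 0.0436 for 3p, and at 0.243 and 0.288 against 0.712 and 0.648 for 5p. The 5p arms rest on 805 to 1065 reads per library, which gives shares within ± 3.43 percentage points.

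Members within a family differ by few bases. How reads that match more than one member were counted is not given in the sources used here, so the split between miR-29a, b and c, between miR-30a, d and e and between miR-30b and c is uncertain.

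**Figure D3:**
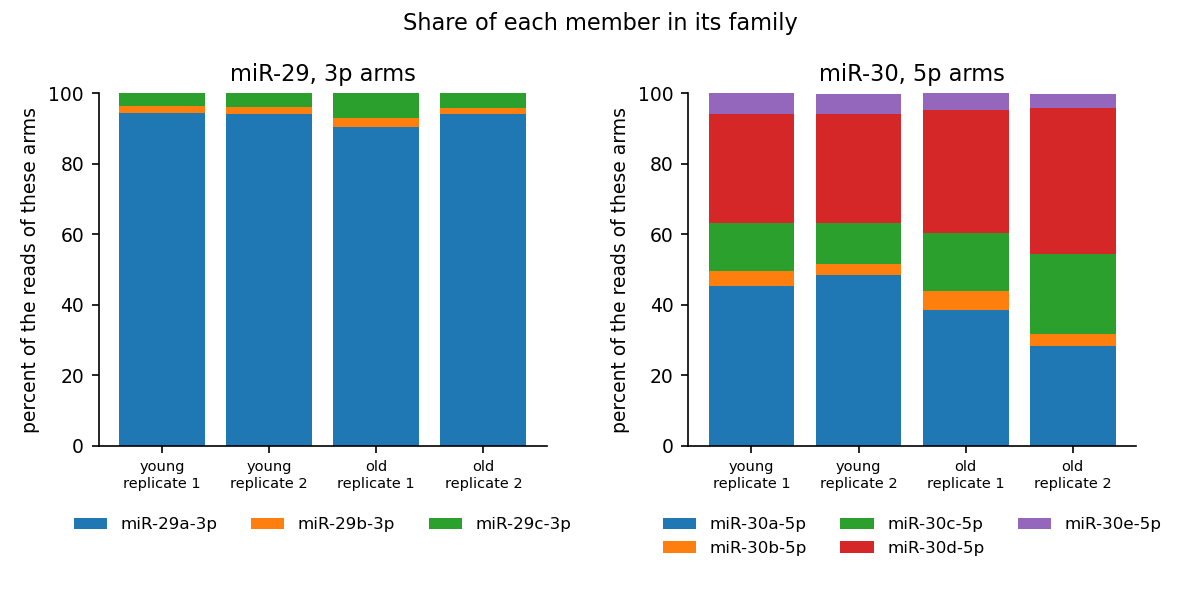
Share of each member in the reads of its family in each of the 4 livers, in percent, for the 3p arms of miR-29 and the 5p arms of miR-30, as stacked bars that start at 0. miR-30a-5p (blue, right) is 45.3% and 48.5% in young livers against 38.6% and 28.5% in old livers, while miR-29a-3p holds at least 90.4% of the miR-29 bar in each liver.

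Both arms of all 8 hairpin letters were in the table, and the reads of the main arm over those of the other arm give a balance that the scaling of the library does not change. For miR-30e the balance of 5p over 3p was 4.45 and 4.47 in young livers against 2.63 and 1.68 in old livers. For miR-30a it was 29.2 and 34.3 in young livers against 19.7 and 7.19 in old livers. For miR-30d it was 420 and 446 against 400 and 322. All 3 balances were lower in both old livers, and the log2 differences were -1.09 (SD 0.32 within groups) for miR-30e, -1.41 (SD 0.74) for miR-30a and -0.27 (SD 0.16) for miR-30d. miR-30e-3p was 18.3% of the reads of both arms in each young liver and 27.6% and 37.3% in the old livers. miR-30a-3p was 3.31% and 2.84% in young livers against 4.83% and 12.2% in old livers. The interval of such a share was at most ± 0.959 percentage points.

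For miR-29a, whose main arm is 3p, the balance of 3p over 5p was 368 and 369 in young livers against 478 and 565 in old livers, a log2 difference of 0.50 (SD 0.12). The balances of miR-29b, miR-29c, miR-30b and miR-30c overlapped between the ages. In miR-30b and miR-30c the 2 replicates of 1 age differed more than the ages did, with miR-30b at 101 and 54.4 in young livers against 102 and 44.7 in old livers. Of the 8 hairpins, 3 or 37.5% were lower in the old livers without overlap and 1 or 12.5% was higher, beside 27.9% and 28.8% of 111 hairpins with both arms read. A single hairpin more or fewer moves these shares by 12.5 percentage points. limma on the log2 balance called 4.5% of the 111 hairpins and none of the 8, whose adjusted p ranged from 0.150 for miR-30e to 0.993. The unadjusted p of miR-30e was 0.031, and 12.6% of the 111 hairpins were lower at an unadjusted p under 0.05, while the median difference of the 111 hairpins regardless of sign was 0.51.

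**Figure D4:**
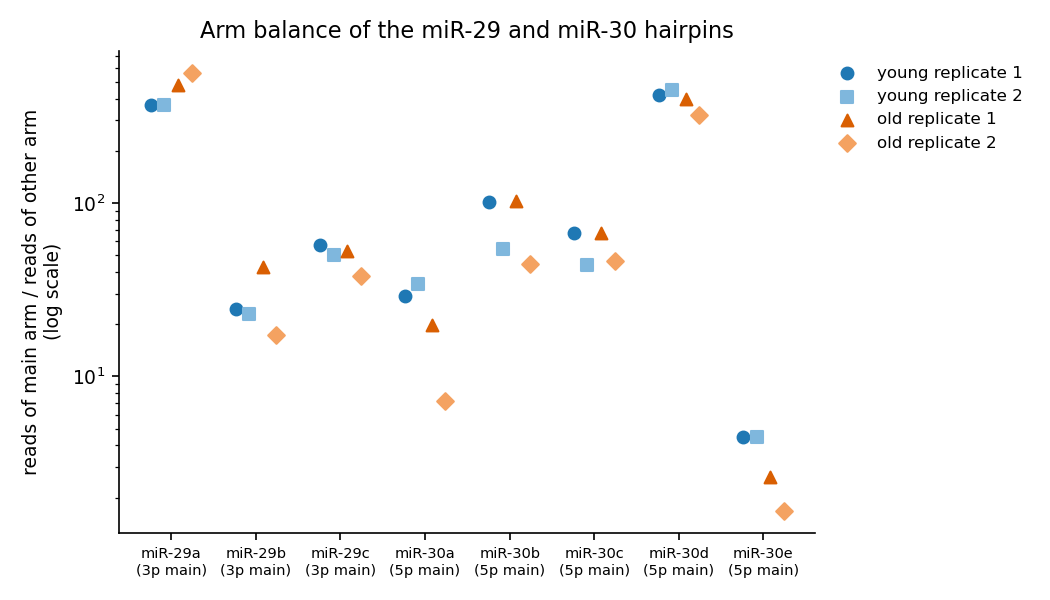
Reads of the main arm over reads of the other arm for the 8 hairpin letters, on a log axis, 1 point per liver, with the main arm named under each letter. For miR-30a and miR-30e the orange points of the old livers lie below the blue points of the young livers, and for miR-29a they lie above them.

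The members' hairpins lie in pairs of neighbours in the pig genome. In the RefSeq annotation of Sscrofa11.1, used only for names and neighbours, MIR29B-1 is next to MIR29A, MIR29B-2 to MIR29C, MIR30C-2 to MIR30A, MIR30D to MIR30B and MIR30C-1 to MIR30E, with no other gene starting between the 2 of a pair. The differences of neighbours did not always have the same sign: the log2 fold change was -0.63 for miR-29a-5p and -0.60 for miR-29b-1-5p, while it was 0.72 for miR-29c-5p and -0.22 for miR-29b-2-5p. The hairpins of miR-30e and miR-30c-1 lie inside NFYC, which encodes a subunit of the CCAAT-binding factor NF-Y. NFYC mRNA was at 1.81 and 1.68 CPM in young livers against 4.84 and 3.87 CPM in old livers. The old livers were higher without overlap, with a log2 fold change of 0.96 on the log2(CPM + 1) scale (SE 0.15, limma, adjusted p = 0.216). DESeq2 put it past its threshold with a log2 fold change of 1.50 (adjusted p = 0.036). Of the arms of the hairpins inside NFYC, miR-30e-5p was lower and miR-30e-3p higher in the old livers in RPM. miR-30c-1-3p, at 6.90 and 6.54 RPM against 6.39 and 5.92, was lower without overlap on that scale, by little and on only 54 to 72 reads per library. Its deposited values of 96.0, 54.8, 71.6 and 64.2 overlapped. miR-30c-5p is listed without a locus number, so its reads cannot be split between miR-30c-1 and miR-30c-2. It was higher in both old livers in RPM, at 2981 and 2554 against 3470 and 3709, while its deposited values overlapped.

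By the rule for likeness, the names whose deposited profile over the 4 livers was nearest to miR-30a-5p among 293 names were ssc-miR-192, ssc-miR-186 and miR-152-3p, with root mean square differences of 0.0189, 0.0369 and 0.0740 on the log2 scale. ssc-miR-192, an abundant liver miRNA, had values of 548785, 348194, 357050 and 202220, with old replicate 2 lowest as for miR-30a-5p. The names nearest to miR-29a-3p were miR-1307-3p at 0.0445, miR-628-3p at 0.0539 and a predicted miRNA at 0.0588. All profiles over 4 livers share the scale of the libraries.

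The miRNAs that mark other cell types were read in the same libraries, and in bulk tissue fewer cells of a type and less RNA per cell cannot be told apart. Of the muscle miRNAs, 6 of 10 listed names were in the table, with miR-1 under the names ssc-miR-1 and miR-1-3p. With miR-1 counted once, as ssc-miR-1, 3 of 5 were higher in RPM in the old livers without overlap, beside 28.6% of all names. The summed level of the 5 was 141 and 132 RPM in young livers against 271 and 453 in old livers. The 2 miR-1 names were not near-identical. ssc-miR-1 gave 159 and 108 reads in young livers against 1065 and 2211 in old livers, and miR-1-3p gave 317 and 213 against 2085 and 4325. With both names the sum was 172 and 156 RPM in young livers against 483 and 927 in old livers. The muscle-specific ssc-miR-206 had 3 and 4 reads in young livers against 70 and 248 in old livers. ssc-miR-499-5p, at 826, 465, 989 and 402 reads, and ssc-miR-133a-3p, at 482, 554, 526 and 1236 reads, overlapped between the ages. The leukocyte list, with 5 of 8 in the table, summed to 1987 and 2544 RPM in young livers against 4972 and 2622 in old livers. The stromal and endothelial list, 7 of 9 in the table, ranged from 57535 to 75121 and overlapped between ages, as did the erythroid list, 4 of 8 in the table, which ranged from 1712 to 3831. The listed miRNAs that are in the table were above 0 in every library. Of the muscle mRNAs 2 of 10 listed were tested, and they summed to 0.904 and 0.242 CPM in young livers and 0.0810 and 2.16 CPM in old livers, which overlapped. The part of these cells in the values of miR-29 and miR-30 was not tested.

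Listed targets of the families were read in the RNA-seq libraries, in CPM, the reads of a gene after scaling for the size of the library, with no correction for gene length. The lists come from textbook knowledge of the families, and a listed gene was not tested here for a binding site. With NFYC, 113 listed genes were tested, and limma called 0 of them, as it called 0.0% of all 16898 mRNAs. Genes of few reads can pass the filter only through the group where they are high. The counts of each list are therefore over its genes with a mean of at least 1 CPM over the 4 livers. That limit does not remove the effect, for listed genes or for all mRNAs, because a gene can still reach the mean through 1 age group alone. Of the 9790 mRNAs of that level, 17.8% were higher and 32.9% lower in the old livers without overlap, and the median log2 fold change was -0.15 (0.00 with TMM scaling). At an unadjusted p under 0.05, limma placed 7.69% of them as higher and 14.0% as lower. Of the 5 lists, in the order described here, 1, 0, 2, 6 and 5 genes of that level had an unadjusted p under 0.05. edgeR's exact test called 0 of the listed genes, against 2.04% of all mRNAs called higher and 0.32% lower. DESeq2 called 3 of the listed genes higher and 1 lower, against 4.04% and 1.17% of all mRNAs, and these were COL4A2, CCN1 and NFYC and, as the lower one, MTTP.

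Among collagen and matrix genes, the targets for which miR-29 is best known, 29 were tested and 9 had a mean of at least 1 CPM. Of the 9, 2 were higher in the old livers without overlap, or 22.2% beside 17.8% of all mRNAs of that level, and 0 were lower, beside 32.9%. The 2 higher genes, COL4A2 and HSPG2, were under 1 CPM in both young livers and reached the mean through the old livers. No conclusion on the list is drawn from their count. COL4A2, a chain of the basement membrane collagen, was at 0.512 and 0.300 CPM in young livers against 1.76 and 2.48 CPM in old livers, with a log2 fold change of 1.14 (SE 0.19, limma, adjusted p = 0.217). DESeq2 put COL4A2 past its threshold at a log2 fold change of 2.57 (adjusted p = 0.010). HSPG2, the basement membrane proteoglycan perlecan, was at 0.610 and 0.774 CPM against 1.22 and 2.63 CPM, also higher in both old livers. The fibrillar collagen genes COL3A1 and COL1A2 overlapped between the ages. COL3A1, which falls outside the rule for named genes, was at 8.75 and 21.4 CPM in young livers against 5.53 and 23.1 CPM in old livers, and COL1A2 was at 1.72 and 4.55 against 1.51 and 7.16 CPM. Both were high in the second replicate of each age, and both are also on the list of stellate cell and fibroblast markers, whose 11 tested genes summed to 32.8 and 57.4 CPM in young livers against 34.6 and 90.4 CPM in old livers. Their part in the matrix values was not tested.

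Of 6 tested genes of DNA methylation 3 had a mean of at least 1 CPM, of which 0 were higher and 1 was lower in the old livers without overlap, beside 17.8% and 32.9% of all mRNAs. The lower one was TET1, which oxidises methylated cytosine, at 1.32 and 2.15 CPM in young livers against 1.28 and 1.18 CPM in old livers. The methyltransferase DNMT3A, outside the rule for named genes, overlapped at 1.26, 2.10, 1.64 and 1.42 CPM. Of 20 tested signalling and survival targets of miR-29, 16 had that level, of which 2 or 12.5% were higher and 4 or 25.0% lower, below the shares over all mRNAs. GSK3B, a kinase of insulin and Wnt signalling, was at 11.2 and 11.8 CPM in young livers against 5.53 and 7.02 CPM in old livers (log2 fold change -0.79, SE 0.16, limma, adjusted p = 0.235). CDC42, a small GTPase, was at 33.7 and 38.4 CPM against 23.8 and 25.3 CPM, lower in both old livers.

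Among the listed targets of miR-30, 26 genes of transcription and signalling were tested and 16 had a mean of at least 1 CPM. Of the 16, 6 or 37.5% were higher without overlap, beside 17.8% of all mRNAs, and 5 or 31.2% were lower, beside 32.9%. Their median log2 fold change was 0.12, beside -0.15, and the difference between the list and other genes was not tested. CCN1, a secreted matrix protein, was at 0.316 and 1.21 CPM in young livers against 2.96 and 6.81 CPM in old livers (log2 fold change 1.70, SE 0.49, limma, adjusted p = 0.285). It had the smallest adjusted p of the listed genes in edgeR's exact test, 0.0665, and DESeq2 put it past its threshold at 2.83 (adjusted p = 0.044). CCN2, the related connective tissue growth factor, was at 0.207 and 0.451 CPM in young livers against 0.601 and 3.79 CPM in old livers. CCN2 was under 1 CPM in every liver but old replicate 2, through which it reached the mean of at least 1 CPM. KLF10, a transcription factor induced by TGF-beta, was at 0.599 and 2.26 CPM against 4.13 and 6.81 CPM, and IRS1, an adaptor of the insulin receptor, was at 0.915 and 1.50 CPM against 2.34 and 4.07 CPM. All 4 genes were highest in old replicate 2 and lowest in young replicate 1.

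Of 32 tested genes of autophagy, trafficking and enzymes 21 had that level, of which 2 or 9.52% were higher without overlap and 7 or 33.3% were lower, the latter close to the 32.9% of all mRNAs. MTTP, which loads lipid onto apolipoprotein B, was at 74.0 and 81.6 CPM in young livers against 27.2 and 29.0 CPM in old livers. Its log2 fold change was -1.44 (SE 0.13, limma, adjusted p = 0.213), and DESeq2 put it past its threshold at -1.30 (adjusted p = 0.004). LPGAT1, an enzyme of phospholipid synthesis, was at 42.8 and 28.0 CPM in young livers against 5.31 and 15.6 CPM in old livers (log2 fold change -1.80, SE 0.60, limma, adjusted p = 0.323). UBE2J1, a ubiquitin-conjugating enzyme of the endoplasmic reticulum, was at 4.45 and 4.51 CPM against 1.92 and 1.73 CPM. P4HA1, a subunit of collagen prolyl hydroxylase, was at 5.69 and 16.2 CPM against 5.22 and 3.68 CPM, where young replicate 2 stood apart. MTTP and LPGAT1 are both genes of hepatocyte lipid handling. Of the 11 tested hepatocyte markers 0 were higher in the old livers without overlap, beside 17.8% of all mRNAs with a mean of at least 1 CPM. Lower without overlap were 2 or 18.2%, beside 32.9% of those mRNAs. The median log2 fold change of the 11 was -0.24 (-0.04 with TMM scaling), beside -0.15 (0.00 with TMM scaling). The sum of the 11 markers was 51407 and 60226 CPM in young livers against 36062 and 44704 CPM in old livers. ALB alone gave 29468 and 35205 against 16534 and 23978 CPM of it. Of 7 tested macrophage and leukocyte markers, 5 or 71.4% were higher without overlap, beside 17.8% of all mRNAs, and 1 or 14.3% was lower, beside 32.9%. These 7 markers summed to 213 and 236 CPM in young livers against 307 and 293 CPM in old livers. The part of these cell markers in the values of the targets was not tested, and the RNA-seq libraries of the old livers were shallower, with 22482241 and 24866406 reads on mRNAs against 37555696 and 37125093 in the young livers.

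**Figure D5:**
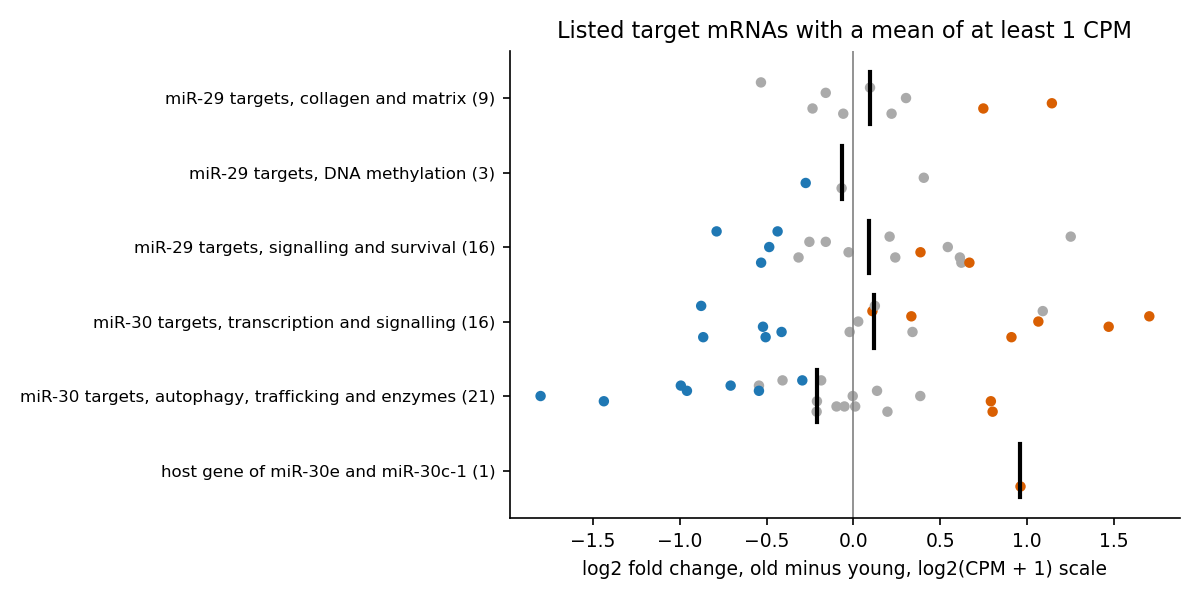
Log2 fold change of old against young livers on the log2(CPM + 1) scale for each tested gene with a mean of at least 1 CPM in the 5 target lists and for NFYC, 1 point per gene, with the median of each list as a black bar. Orange points are genes whose old values are all above the young ones, blue points those below and grey points those that overlap, and MTTP and LPGAT1 are the leftmost genes of the autophagy, trafficking and enzyme list.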

How the data were processed

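Small RNA-seq and RNA-seq of the same 4 livers were used, grouped by the age in the labels. The authors made the miRNA signal values with mirdeep2 against miRBase, and the scaling to a library total is not given in the sources used here. The mRNA values, which the authors name TPM and deposited after TopHat2 2.0.14, StringTie 1.2.3 and Salmon 0.6.0 on Sscrofa10.2, are whole multiples of 1 step per library, so they are CPM. Whole reads were recovered by dividing by that step, and 100% of the miRNA values came out whole within 0.0006 units. The reads of the table summed in every library to more than the clean reads the study gives, so some reads stand under more than 1 name. With repeats counted once, the sums of young replicate 1 (10438212) and old replicate 1 (9853669) still exceeded the highest clean-read total the paper gives for a small RNA library.

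limma 3.58.1 was fitted on log2(value + 1), which understates the change of low genes, over names detected in at least 2 libraries. Adjustment followed Benjamini and Hochberg, with calls at an adjusted p under 0.05 and an absolute log2 fold change above 1. edgeR 4.0.16 and DESeq2 1.42.0 were run on whole reads in R 4.3.3, with Python 3.11.15, numpy 2.4.6, pandas 2.3.3 and matplotlib 3.10.9 for tables and plots. The fits were tested on simulated data. The members, lists and tests were chosen with earlier results of these data known, and the test of arm balance and the other settings of arm balance and target lists, the mean of 1 CPM included, were added after seeing the data. All members were named. Of mRNAs, NFYC and up to 4 genes per target list were named, with a mean of at least 1 CPM and no overlap between ages, by largest log2 fold change. Of the genes this rule selects, some are not reported here. Likeness was computed over names with a mean value of at least 100. Symbols were given for 11654 of 21607 mRNA identifiers, and target lists held 36, 7, 29, 39 and 44 symbols, older names included. The tables of lncRNAs and circRNAs were not used here.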

Additional observations from a re-analysis of the deposited data

How the results depend on the processing

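Of 270 values of the members under other settings 248 kept their sign and none was called, and 22 changed sign over 9 members, 10 of them outside the fits that leave out a liver. miR-30d-5p changed to -0.14 with TMM scaling, edgeR's exact test and its quasi-likelihood test and to -0.10 with DESeq2 size factors and DESeq2. miR-30b-3p changed to -0.15 with TMM scaling, -0.16 with both edgeR tests and -0.11 with DESeq2 size factors and DESeq2. Leaving out each liver gave log2 fold changes from -0.44 to 0.17 for miR-29a-3p, -0.52 to 0.19 for miR-29b-3p, -0.53 to 0.084 for miR-29b-2-5p, -0.69 to 0.53 for miR-30b-5p, -0.069 to 0.89 for miR-30c-5p, -0.31 to 0.43 for miR-30d-5p, -0.11 to 0.22 for miR-30b-3p, -0.50 to 0.30 for miR-30c-1-3p and -0.080 to 0.74 for miR-30d-3p. The median of all names was 0.44 without young replicate 1 and -0.11 without young replicate 2. Family totals ranged from -0.41 to 0.20 for the 3p arms of miR-29, from -0.52 to 0.032 for the 5p arms of miR-29 and from -0.60 to 0.14 for the 5p arms of miR-30. The arm balance kept its sign for miR-30a (-2.14 to -0.68), miR-30e (-1.41 to -0.76), miR-30d (-0.43 to -0.11), miR-29c (-0.50 to -0.035) and miR-29a (0.38 to 0.62). It changed sign for miR-29b, miR-30b and miR-30c. The other members kept their sign, from -0.94 to -0.32 for miR-29a-5p, -1.05 to -0.15 for miR-29b-1-5p, 0.54 to 0.91 for miR-29c-5p, 0.10 to 0.76 for miR-30c-3p and 0.09 to 0.85 for miR-30e-3p, beside those given with the values. Over all tested genes, the median of the DNA methylation list was 0.20, and it was -0.068 over genes with a mean of at least 1 CPM. Also over all tested genes, the median of the collagen and matrix list was 0.29 without young replicate 2 and 0.02 without old replicate 2. That of the miR-29 signalling list, again over all tested genes, was 0.04 without young replicate 2. These medians include genes of few reads, which the counts of each list leave out.

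limma called 0 names and 0 mRNAs, with 103 names and 2654 mRNAs at an unadjusted p under 0.05. With a mean of at least 10, 16 names were called, and 32 and 43 names by edgeR's exact test and DESeq2. For mRNAs, 2 were called with a mean of at least 1, 399 by the exact test and 880 by DESeq2. edgeR's quasi-likelihood test called 0 of each. The replicate block called 0 names and 0 mRNAs, and same-numbered livers, which come from unrelated sows, had correlations of deviations of -0.0158 and 0.0902. Over the mRNAs that the rule selects, 4 of 224 values passed a threshold that the limma values missed, all with DESeq2.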
